A study of Homo sapiens with 18 samples.

Results

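The 39 genes described here are interferon-stimulated genes, a fixed list of symbols matched to Ensembl identifiers in the count files. All 39 were found among the 58051 genes of each file, and all 39 passed the filter on low counts that left 15037 genes for testing. They were read in 18 RNA-seq libraries of the leukaemia line THP-1, human monocytic cells in long-term culture that become macrophage-like when treated with the phorbol ester PMA. The cells had been transduced with an MSCV retroviral vector carrying GFP, sorted for GFP and given PMA at 5 ng/ml for 48 h, in every group alike. The vectors were NIC1, the MYC-tagged intracellular domain of NOTCH1 and thus the active receptor, DNMAML, a dominant-negative Mastermind-like protein that blocks transcription by the Notch complex, and IRES, the empty vector. The 6 groups were NIC1 cells with IL-4 at 20 ng/ml for 3 h, NIC1 cells left unstimulated, DNMAML cells with IL-4, DNMAML cells left unstimulated, IRES cells with IL-4 and IRES cells left unstimulated. Each group had 3 libraries, numbered as experiments 1, 2 and 3, so that experiment 2 contributed 6 libraries and experiments 1 and 3 together 12.

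Type I interferons bind the IFNAR1 and IFNAR2 receptor chains, and the kinases JAK1 and TYK2 then act on the ISGF3 complex. This complex, which includes STAT2 and IRF9, binds the interferon-stimulated response element (ISRE) in the promoters of interferon-stimulated genes. The products of these genes sense, bind or degrade viral RNA, block viral entry and capsids, or attach the ubiquitin-like protein ISG15 to other proteins, and macrophages keep many of them at a basal level without infection.

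Levels are given in CPM, a gene's counts relative to the library total, on the TMM scale, a scaling of library sizes that removes shifts shared by most genes. A change was called at an adjusted p under 0.05, with edgeR's quasi-likelihood test and Benjamini-Hochberg adjustment over all 15037 genes. Libraries held between 12410668 and 15099788 counts in genes. The deposited labels do not say that the libraries of a group came from separate cultures, and only 1 experiment carries each number, so p-values here reflect how much these libraries varied, which may be technical. The transduced gene itself was highest under its own vector in every experiment and condition: NOTCH1 in NIC1 cells and MAML1 in DNMAML cells. The IL-4 response gene CISH lay between 99.6 and 151 CPM in the libraries with IL-4 and between 1.17 and 2.66 CPM in the unstimulated ones, experiment 2 included. Of the macrophage markers, CD33, ITGAM, CSF1R and CD4 were well above 0, whereas CD68 stayed between 0.401 and 1.60 CPM. With 25322 and 23179 genes detected, the IL-4 DNMAML library and the unstimulated IRES library of experiment 3 had more than all others, which had at most 21557.

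The largest differences measured in these genes were those between experiments. In experiment 2, 38 of the 39 genes were lower than in experiments 1 and 3, and none was higher. Among all genes tested, 51.2% were called in this comparison in either direction and 24.4% were lower. The median log2 difference was -1.70 over the 39 genes and 0.01 over all genes tested. The summed level of the 39 genes lay between 1129 and 1619 CPM in the 6 libraries of experiment 2, with a median of 1378 CPM, and between 3781 and 6353 CPM in the other 12, with a median of 4176 CPM. The ranges of the sums did not overlap. In such bulk libraries, fewer cells that express a gene and less of its RNA per cell cannot be told apart.

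**Figure D1:**
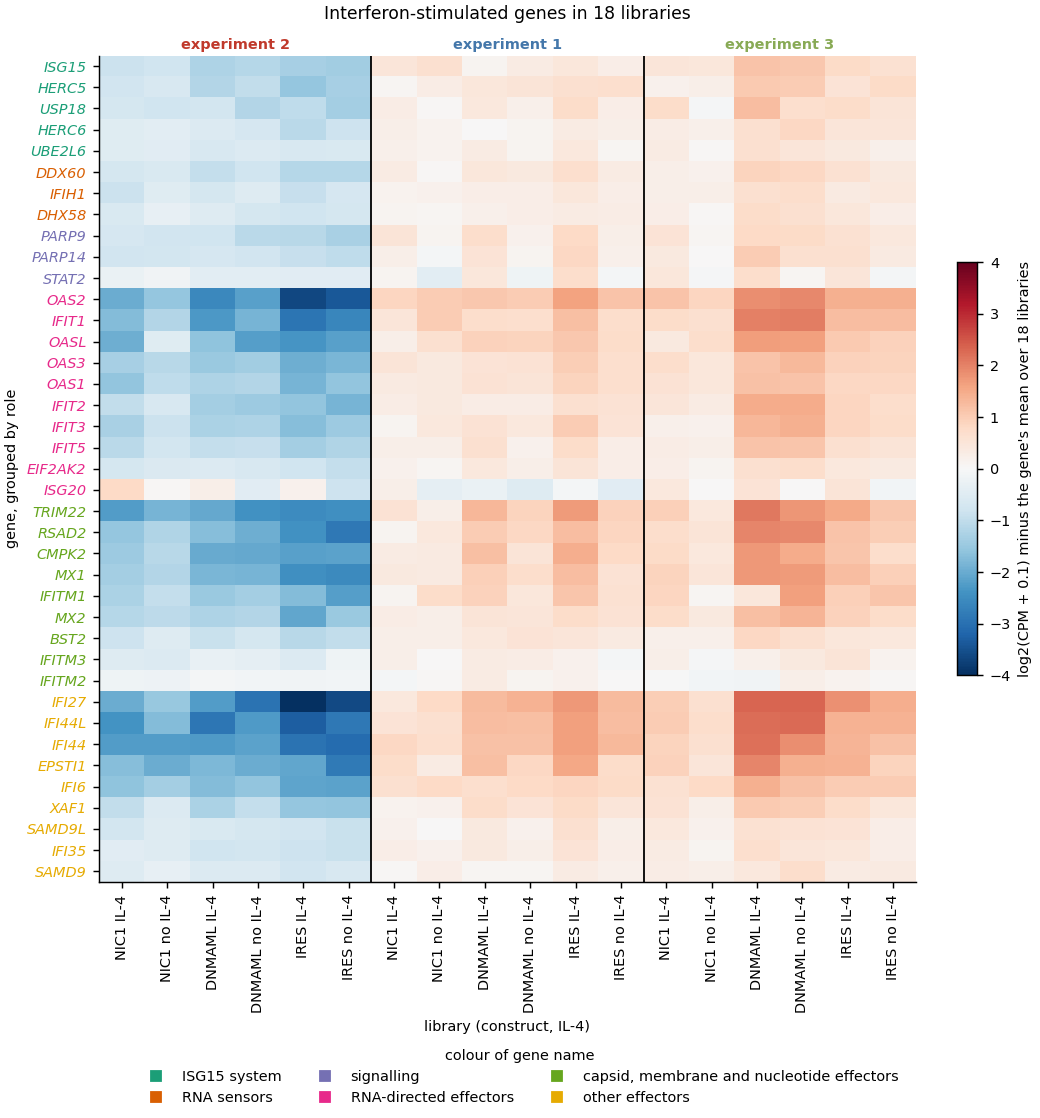
Each row is 1 gene and each column 1 library, with experiment 2 at the left and then experiments 1 and 3, ordered by construct and IL-4 within an experiment. The colour is log2(CPM + 0.1) minus that gene's mean over the 18 libraries, and gene names are coloured by role. The 6 columns of experiment 2 are below the mean, in blue, for 38 of the 39 genes. For 36 of the 39 the highest level in experiment 2 lay below the lowest in experiments 1 and 3.

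By size, a log2 difference of -1 or lower was seen in 32 of the 39 genes, against 2.04% of all genes tested. At -2 or lower there were 16 of the 39, against 0.299% of all genes, and at -3 or lower 7, against 0.0865%. Of the 10 genes with the lowest log2 difference among all tested, 5 belonged to the list, and 22 of the lowest 100 did. The list was chosen with earlier results of these data known, so these shares are a description and not independent support. For 36 of the 39 genes, all 6 libraries of experiment 2 lay below all 12 libraries of the other experiments, which was true of 4.4% of all genes tested. The exceptions were ISG20, IFITM2 and STAT2.

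The promoters of the 39 genes were searched for the core of the ISRE, spelled GAAANNGAA. A promoter sequence was at hand for 31 of the 39 genes, and 22 of these (71%) held GAAANNGAA on either strand in the 250 bases before the transcription start. Of 27305 genes with such a window, 8.41% held it. The median log2 difference of experiment 2 was -1.83 over the 22 genes with a match and -1.06 over the 9 without. The gamma-activated site, spelled TTCNNNGAA and read the same on both strands, occurred in 9 of the 31 (29%) and in 8.09% of all. Of the 31 genes, 7 held both motifs, and in 4 of these the motifs shared bases. A match is a description of these letters and not a bound site. TRIM22, DHX58, OAS2, OASL, USP18, MX2, IFIT2 and IFITM2 had no entry among the promoter sequences.

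The stretches below are shown because they hold that core in the 8 matching genes with the largest difference. They are from RefSeq on GRCh38.p14, are written on the gene's strand 5′ to 3′, and have each match in capitals, as GAAANNGAA or as its reverse complement.
IFI27, chr14:94110616-94110674 on the plus strand: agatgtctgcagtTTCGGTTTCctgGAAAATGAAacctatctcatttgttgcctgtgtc
IFI44L, chr1:78620350-78620408 on the plus strand: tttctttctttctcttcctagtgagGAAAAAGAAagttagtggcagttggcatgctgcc
IFI44, chr1:78649747-78649788 on the plus strand: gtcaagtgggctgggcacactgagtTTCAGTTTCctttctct
EPSTI1, chr13:42992258-42992316 on the minus strand: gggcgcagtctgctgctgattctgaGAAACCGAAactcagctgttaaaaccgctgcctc
IFIT1, chr10:89392496-89392554 on the plus strand: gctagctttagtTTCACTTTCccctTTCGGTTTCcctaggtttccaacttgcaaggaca
RSAD2, chr2:6865781-6865839 on the plus strand: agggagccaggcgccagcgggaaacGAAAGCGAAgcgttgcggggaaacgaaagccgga
MX1, chr21:41431830-41431888 on the plus strand: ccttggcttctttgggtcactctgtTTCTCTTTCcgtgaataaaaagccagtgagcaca
IFI6, chr1:27672252-27672310 on the minus strand: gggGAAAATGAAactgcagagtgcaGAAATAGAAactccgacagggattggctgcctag

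IFI27, which encodes a small mitochondrial protein of the interferon response and has matches on both strands in the stretch above, showed the largest difference. Its lowest, median and highest levels were 0.0751, 0.418 and 0.956 CPM in experiment 2, against 3.95, 7.47 and 15.02 CPM in experiments 1 and 3. That is 18.1-fold lower in experiment 2, a log2 difference of -4.18 ± 0.344 (SE, adjusted p = 2.5e-07), and the lowest value stands for a single count. Its neighbours on the scale of change were IFI44L and IFI44, which lie side by side on chromosome 1 (78619922 to 78664078, GRCh38) and whose proteins act against viruses. IFI44L had 2.63, 4.34 and 7.96 CPM in experiment 2, against 39.5, 63.4 and 128 CPM in the others, a log2 difference of -3.85 ± 0.307 (SE, adjusted p = 1.7e-06). IFI44 had 1.59, 2.90 and 3.15 CPM in experiment 2, against 22.2, 32.1 and 65.0 CPM, a log2 difference of -3.77 ± 0.244 (SE, adjusted p = 1.5e-07). In all 3 genes the highest library of experiment 2 was several-fold below the lowest of the other 12. EPSTI1, a gene induced by contact of epithelial with stromal cells as well as by interferon, had 2.16, 4.004 and 4.85 CPM in experiment 2, against 20.2, 30.1 and 62.8 CPM, a log2 difference of -3.13 ± 0.166 (SE, adjusted p = 5.7e-09). IFI6, a mitochondrial and endoplasmic reticulum protein that restrains cell death, was the most abundant member per length, with 282 CPM per kb of exon in experiment 2, against 1732 CPM per kb in the others. Its lowest, median and highest levels were 181, 254 and 316 CPM in experiment 2, against 1223, 1403 and 2167 CPM, a log2 difference of -2.62 ± 0.146 (SE, adjusted p = 4.7e-08). The lower level in experiment 2 was thus measured at both ends of the expression scale.

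Among the genes that act on cell growth or have no single role, 9 of 9 were lower in experiment 2, with a median log2 difference of -2.62. XAF1, which counters the inhibitor of apoptosis XIAP, lay between 17.9 and 36.6 CPM in experiment 2, against 59.5 to 112 CPM in experiments 1 and 3. SAMD9 and SAMD9L are neighbouring genes on chromosome 7 that restrain growth and poxviruses. SAMD9 lay between 57.6 and 76.4 CPM in experiment 2, against 101 to 156 CPM. SAMD9L lay between 42.4 and 54.5 CPM in experiment 2, against 79.6 to 123 CPM. IFI35, a leucine zipper protein of the response, lay between 36.3 and 49.3 CPM in experiment 2, against 72.6 to 109 CPM. None of these 4 overlapped between the experiments.

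Genes whose products bind, cleave or block RNA were lower in 9 of 10 cases, with a median log2 difference of -2.03. The oligoadenylate synthetases OAS1, OAS2 and OAS3 sense double-stranded RNA and make the second messenger that activates RNase L; they form a cluster on chromosome 12 (112906777 to 113011723). OAS2 had 2.56, 6.30 and 11.3 CPM in experiment 2, against 59.8, 72.5 and 124 CPM in experiments 1 and 3, a log2 difference of -3.69 ± 0.300 (SE, adjusted p = 2.0e-06). OAS3 had 49.5, 71.2 and 89.1 CPM in experiment 2, against 250.3, 313 and 473 CPM, a log2 difference of -2.26 ± 0.171 (SE, adjusted p = 1.0e-06). OAS1 had 12.5, 17.2 and 22.5 CPM in experiment 2, against 58.4, 70.4 and 102 CPM, a log2 difference of -2.10 ± 0.141 (SE, adjusted p = 1.8e-07). The order of the 3 clustered genes by level differed from their order by change: OAS3 was the highest per kb of exon in both sets of experiments, and OAS2 changed most. OASL, a relative that lacks the synthetase activity and boosts RIG-I signalling, had 1.503, 1.89 and 5.81 CPM in experiment 2, against 9.56, 15.4 and 26.2 CPM, a log2 difference of -2.63 ± 0.265 (SE, adjusted p = 5.3e-06).

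The IFIT proteins act against viral RNA, some of them by binding its 5′ end, and their genes lie together on chromosome 10 (89283694 to 89421001). IFIT1, whose promoter stretch above carries the core in the reverse direction in both places, had 3.08, 5.70 and 10.6 CPM in experiment 2, against 33.5, 44.2 and 99.9 CPM, a log2 difference of -3.11 ± 0.327 (SE, adjusted p = 1.5e-05). IFIT2 lay between 2.67 and 6.37 CPM in experiment 2, against 12.3 to 28.1 CPM in the others. For IFIT3 the levels were 16.1 to 29.3 CPM in experiment 2, against 57.6 to 143 CPM. IFIT5 lay between 8.72 and 13.5 CPM in experiment 2, against 25.4 to 50.4 CPM. None of the 4 overlapped between the experiments. The strand setting of the counting is not given in the sources used here, and IFIT1, IFIT2 and IFIT3 overlap LIPA on the opposite strand, so reads of that gene cannot be told apart from theirs. EIF2AK2, the kinase PKR that stops translation on double-stranded RNA, lay between 91.1 and 119.7 CPM in experiment 2, against 186 to 284 CPM.

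ISG20, an exonuclease that degrades single-stranded RNA, was the 1 member that did not pass the test. It had 4.69, 9.04 and 14.5 CPM in experiment 2, against 5.80, 8.17 and 12.3 CPM in experiments 1 and 3, a log2 difference of 0.03 ± 0.101 (SE, adjusted p = 0.81). The libraries of the experiments overlapped over most of their range. ISG20 holds the GAAANNGAA core too.

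**Figure D2:**
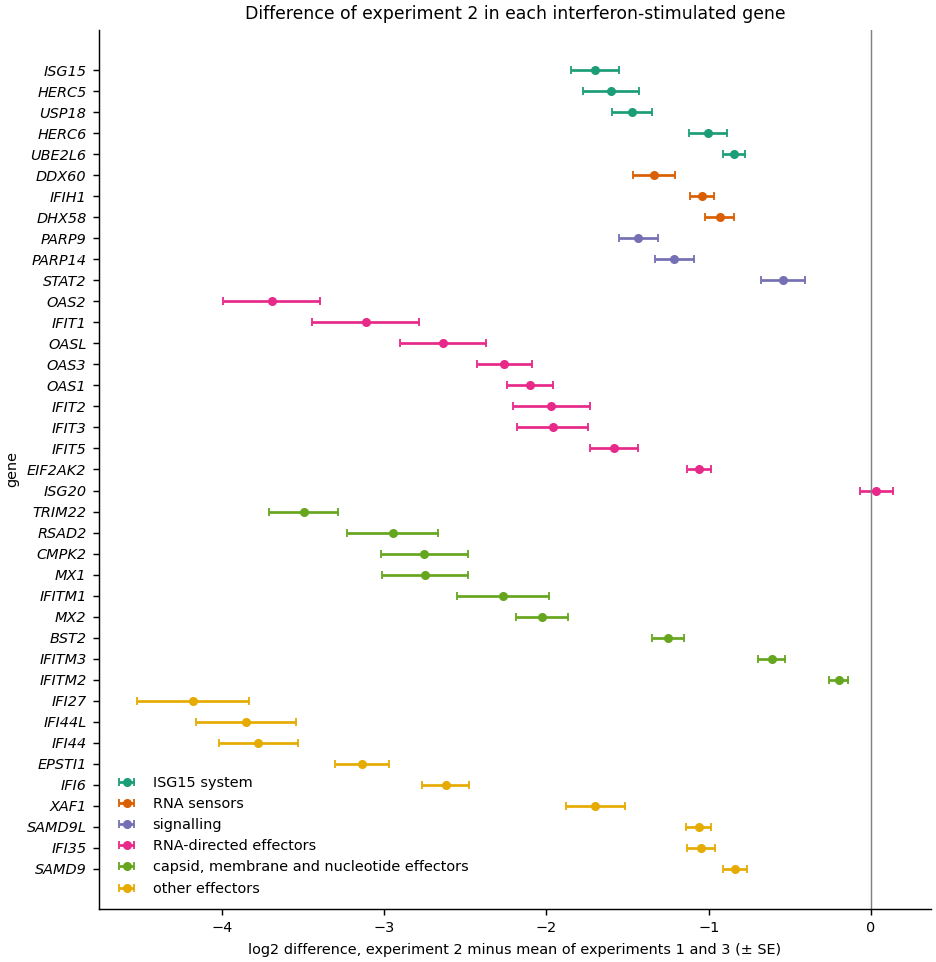
Each point is the log2 difference of 1 gene, experiment 2 minus the mean of experiments 1 and 3, with its SE as the bar, and genes are grouped and coloured by role. Points run between -4.18 for IFI27 and 0.03 for ISG20, and 32 of the 39 lie at -1 or lower.

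All 9 genes that act on capsids, entry, virus release or the nucleotides of viral RNA were lower in experiment 2, with a median log2 difference of -2.27. TRIM22, a ubiquitin ligase that restricts several viruses, had 1.35, 1.58 and 2.23 CPM in experiment 2, against 9.66, 16.8 and 36.3 CPM in experiments 1 and 3, a log2 difference of -3.49 ± 0.213 (SE, adjusted p = 1.3e-08). RSAD2, the enzyme viperin, and CMPK2, a mitochondrial nucleotide kinase, make and feed a chain-terminating nucleotide and lie head to head on chromosome 2 (6840570 to 6898239). RSAD2 had 0.866, 1.85 and 2.95 CPM in experiment 2, against 7.42, 12.99 and 26.9 CPM, a log2 difference of -2.95 ± 0.279 (SE, adjusted p = 2.6e-06). CMPK2 had 2.63, 2.90 and 5.57 CPM in experiment 2, against 15.3, 21.1 and 40.8 CPM, a log2 difference of -2.75 ± 0.269 (SE, adjusted p = 6.4e-06). Both genes thus moved by nearly the same amount. They overlap on opposite strands only between 6865806 and 6866635, and how reads of that stretch were assigned is not known. MX1, a dynamin-like GTPase that traps viral nucleocapsids, had 9.96, 16.5 and 26.0 CPM in experiment 2, against 76.1, 111 and 198 CPM, a log2 difference of -2.75 ± 0.267 (SE, adjusted p = 8.3e-06). Its neighbour on chromosome 21, MX2, which acts on HIV capsids, lay between 6.16 and 12.5 CPM in experiment 2, against 30.4 to 67.0 CPM. BST2, which tethers budding virions to the cell, lay between 117 and 173 CPM in experiment 2, against 285 to 446 CPM. TRIM22 overlaps 4 annotated genes, TRIM5 among them, and 3 of the 4 lie on its own strand. Reads shared with any of them would not have been assigned with certainty.

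The IFITM proteins block fusion of enveloped viruses and are encoded by near-identical neighbours on chromosome 11 (307631 to 327537), so their counts are uncertain. They moved unequally. IFITM1 had 2.81, 4.97 and 6.93 CPM in experiment 2, against 14.2, 23.2 and 41.5 CPM, a log2 difference of -2.27 ± 0.284 (SE, adjusted p = 5.4e-05). IFITM3 lay between 7.25 and 9.31 CPM in experiment 2, against 10.0 to 15.3 CPM, without overlap. IFITM2 lay between 26.0 and 28.2 CPM in experiment 2, against 27.1 to 37.5 CPM, and the ranges overlapped, with a log2 difference of -0.20 ± 0.0564 (SE, adjusted p = 5.6e-03).

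The ISG15 system was lower in 5 of 5 genes, with a median log2 difference of -1.47. ISG15, the ubiquitin-like modifier itself, had 16.5, 19.1 and 24.8 CPM in experiment 2, against 46.5, 60.6 and 96.1 CPM in experiments 1 and 3, a log2 difference of -1.70 ± 0.149 (SE, adjusted p = 2.2e-06). UBE2L6, the conjugating enzyme, lay between 53.0 and 60.4 CPM in experiment 2, against 84.9 to 129.8 CPM. HERC5, the ligase, lay between 6.16 and 11.6 CPM in experiment 2, against 18.996 to 37.4 CPM. Its relative HERC6, next to it on chromosome 4, lay between 22.1 and 35.4 CPM in experiment 2, against 47.9 to 82.9 CPM. USP18, which removes ISG15 and damps the interferon receptor, lay between 3.17 and 5.07 CPM in experiment 2, against 8.16 to 20.0 CPM. The modifier, its conjugating enzyme, its ligase and the enzyme that removes it were therefore all lower, and none of the 5 overlapped.

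Of the cytoplasmic RNA sensors, 3 of 3 were lower, with a median log2 difference of -1.04. IFIH1, the sensor MDA5 of long double-stranded RNA, lay between 32.5 and 44.3 CPM in experiment 2, against 67.4 to 100.4 CPM. DHX58, the sensor LGP2, lay between 12.5 and 17.4 CPM, against 22.9 to 36.3 CPM, and DDX60, a helicase that aids RIG-I, between 27.1 and 39.1 CPM, against 62.0 to 112 CPM. Again no library of experiment 2 reached the others.

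The signalling members PARP9, PARP14 and STAT2 were lower in 3 of 3 cases, with a median log2 difference of -1.21. PARP9, which works with the ligase DTX3L that overlaps it on the opposite strand, lay between 36.6 and 56.5 CPM in experiment 2, against 94.7 to 158 CPM. PARP14, an ADP-ribosyltransferase that acts as a coactivator of STAT6 in the IL-4 response, lay between 96.7 and 121 CPM, against 183 to 394 CPM. STAT2, the ISGF3 subunit, had 69.6, 70.8 and 87.4 CPM in experiment 2, against 71.0, 102 and 157 CPM in experiments 1 and 3, a log2 difference of -0.54 ± 0.137 (SE, adjusted p = 6.6e-03). Its ranges overlapped, with the unstimulated libraries of experiments 1 and 3, at 71.0 to 100.4 CPM, nearest to those of experiment 2.

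The genes lie on 15 chromosomes, and 22 of them form 9 clusters of neighbours no more than 250 kb apart. Within a cluster the differences could be alike or unlike. IFI44L and IFI44 had log2 differences of -3.85 and -3.77, and the 3 IFITM genes ran between -2.27 and -0.20.

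As many genes, 38, were lower with DESeq2, with another scaling of library sizes, without the filter on low counts, against experiment 1 alone, against experiment 3 alone, and without any 1 of the 18 libraries. Of all genes, 46.1% were called in either direction with DESeq2, 51.1% with the other scaling, 21.5% without the filter, 48.1% against experiment 1 and 43.6% against experiment 3. Within the IL-4 libraries alone 37 genes were lower, against 34.5% of all genes called in either direction, and within the unstimulated libraries alone 36, against 31.4%. Within single constructs, 35 were lower and 1, ISG20, higher in NIC1 cells, 36 were lower in DNMAML cells and 37 in IRES cells. Of all genes in those 3 fits, 32.7%, 33.6% and 47.1% were called in either direction. The medians over the 39 genes were -1.18 in NIC1, -1.87 in DNMAML and -2.11 in IRES cells.

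Genes of the same pathway outside the list were then set beside it. Interferon genes themselves were almost unread: 15 of 21 had no count in any library, which allows up to 0.242 CPM before TMM scaling in the shallowest library (3 counts, counting error only), and the other 6 held 9 counts together over all 18 libraries. The receptor chain IFNAR1 had 127, 136 and 151 CPM in experiment 2, against 128, 136 and 151 CPM in experiments 1 and 3, a log2 difference of -0.01 (adjusted p = 0.84). IFNAR2 was slightly lower, with a log2 difference of -0.31 ± 0.0439 (SE, adjusted p = 5.7e-06), and so was JAK1, with -0.11 ± 0.0379 (SE, adjusted p = 0.020). TYK2 and IRF9 did not pass the test, with log2 differences of 0.08 (adjusted p = 0.15) and -0.14 (adjusted p = 0.43). Of 16 genes of interferon receptors and their signalling, 7 were lower and 3 higher, with a median log2 difference of -0.12, which is a share of called genes near the 51.2% of all genes tested.

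Of 18 genes of nucleic acid sensing tested, 11 were lower and 3 higher, with a median log2 difference of -0.54. Among all genes tested, 24.4% were lower and 51.2% were called in either direction. The lower ones included TLR8, an endosomal RNA receptor (-2.02 ± 0.271), SAMHD1, which depletes nucleotides (-1.40 ± 0.0705), AIM2, a DNA sensor (-1.32 ± 0.172), IRF7, the factor that amplifies interferon production (-1.06 ± 0.153), and the RNA sensor RIGI (-1.03 ± 0.114), each as a log2 difference with its SE. Those higher were STING1, TICAM1 and IRF3, by 0.19, 0.19 and 0.20 on the log2 scale. Of 52 other interferon-inducible genes tested, of 55 listed, 48 were lower and none higher, against 24.4% of all genes lower. Their median log2 difference was -0.84. Among them were the chemokines CXCL10 (-2.68 ± 0.355) and CXCL11 (-1.98 ± 0.354), the antigen-presentation genes HLA-F (-2.55 ± 0.127), HLA-B (-1.91 ± 0.0905) and PSMB9 (-1.93 ± 0.124), the GTPase gene GBP1 (-2.16 ± 0.161), RTP4 (-1.88 ± 0.439) and LGALS3BP (-1.86 ± 0.116), again as log2 differences with SE. The lower level in experiment 2 was thus also measured in interferon-inducible genes that are not among the 39. These lists, too, were chosen with earlier results of these data known.

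**Figure D3:**
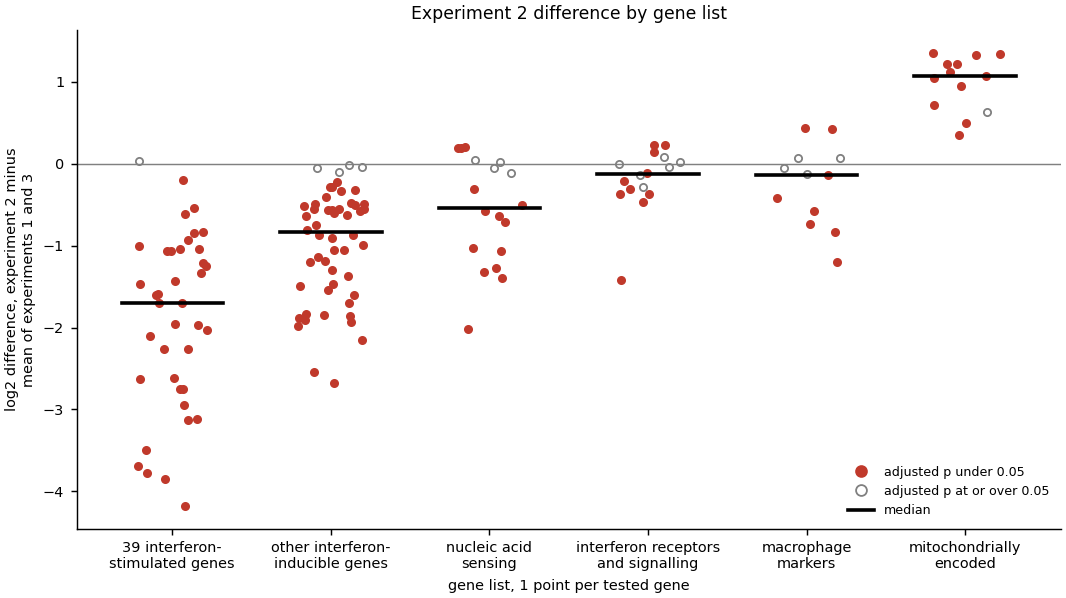
Each point is 1 gene's log2 difference, experiment 2 minus the mean of experiments 1 and 3, by gene list, filled where the adjusted p was under 0.05, with a bar at the median of each list. The medians are -1.70 for the 39 genes and 1.07 for mitochondrially encoded genes.

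Other features of the libraries also differed by experiment. Mitochondrially encoded transcripts made up between 2.33% and 2.66% of gene counts in experiment 2, against 0.508% to 1.66% in experiments 1 and 3. The value of 0.508% belonged to the IL-4 DNMAML library of experiment 3, the one with most genes detected, and without it the lowest was 1.14%. Of 13 such genes 12 were higher in experiment 2, against 51.2% of all genes called in either direction. Their median log2 difference was 1.07. The 12 macrophage markers summed to between 1845 and 1938 CPM in experiment 2, against 1749 to 2077 CPM. Of these markers 6 were lower and 2 higher, against the same 51.2% of all genes called. CD14 lay between 1.59 and 2.49 CPM in experiment 2, against 2.41 to 9.26 CPM. Markers of T cells summed to between 95.1 and 159.5 CPM in experiment 2, against 76.2 to 150.1 CPM. TRAC, which made up most of that sum, lay between 89.1 and 113 CPM, against 73.7 to 113 CPM, and CD3D between 2.64 and 41.6 CPM, against 0.885 to 30.8 CPM. Markers of B cells summed to between 12.3 and 17.0 CPM in experiment 2, against 7.55 to 12.2 CPM. Markers of fibroblasts and epithelium summed to between 144.8 and 192 CPM, against 98.8 to 149 CPM, most of it COL1A1. Of 4 T cell, 2 B cell and 7 fibroblast or epithelial markers tested, 2, 1 and 3 were higher, and 1 fibroblast or epithelial marker was lower, which is again near the 51.2% of all genes called. Markers of plasmacytoid dendritic cells, IRF7 among them, summed to between 123 and 167 CPM, against 149 to 192 CPM, and their defining marker CLEC4C had no count. The part of these features in the lower interferon-stimulated genes was not tested, and the experiment number cannot be told apart from whatever else set the experiments apart.

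Experiments 1 and 3 differed far less from each other. ISG20 alone of the 39 genes was called, higher in experiment 3 by 0.48 ± 0.116 on the log2 scale (SE, adjusted p = 0.015), against 6.81% of all genes tested in either direction and 3.78% upward. It was not called without the IL-4 DNMAML library of experiment 1, the IL-4 IRES library of experiment 3 or the unstimulated IRES library of experiment 3, with adjusted p between 0.0532 and 0.0638. The count of called genes was 2 and 3 without the IL-4 IRES library of experiment 2 or 1, and 4 without the unstimulated NIC1 library of experiment 3. The median log2 difference over the 39 genes was 0.26, and 38 of them lay above 0. It was unequal between constructs. In the unstimulated DNMAML libraries the median log2 ratio of experiment 3 to experiment 1 was 0.61 and all 39 genes lay above 0, and in the DNMAML libraries with IL-4 it was 0.58, with 36 genes above 0. It was 0.17 with IL-4 and 0.01 unstimulated in NIC1 cells, with 34 and 20 genes above 0, and -0.07 with IL-4 and 0.15 unstimulated in IRES cells, with 11 and 35 above 0. In a fit of DNMAML cells alone 34 of the 39 genes were called higher in experiment 3, against 4.11% of all genes in that fit, while 2 were called in NIC1 cells alone, MX1 and MX2, and 4 in IRES cells alone, IFI6, HERC6, ISG20 and ISG15, against 12.4% and 14.7% of all genes. Without the filter on low counts 28 were called, against 4.19% of all genes, and DESeq2 called 1, again ISG20, against 6.53%. The difference between constructs in this comparison was not tested.

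**Figure D4:**
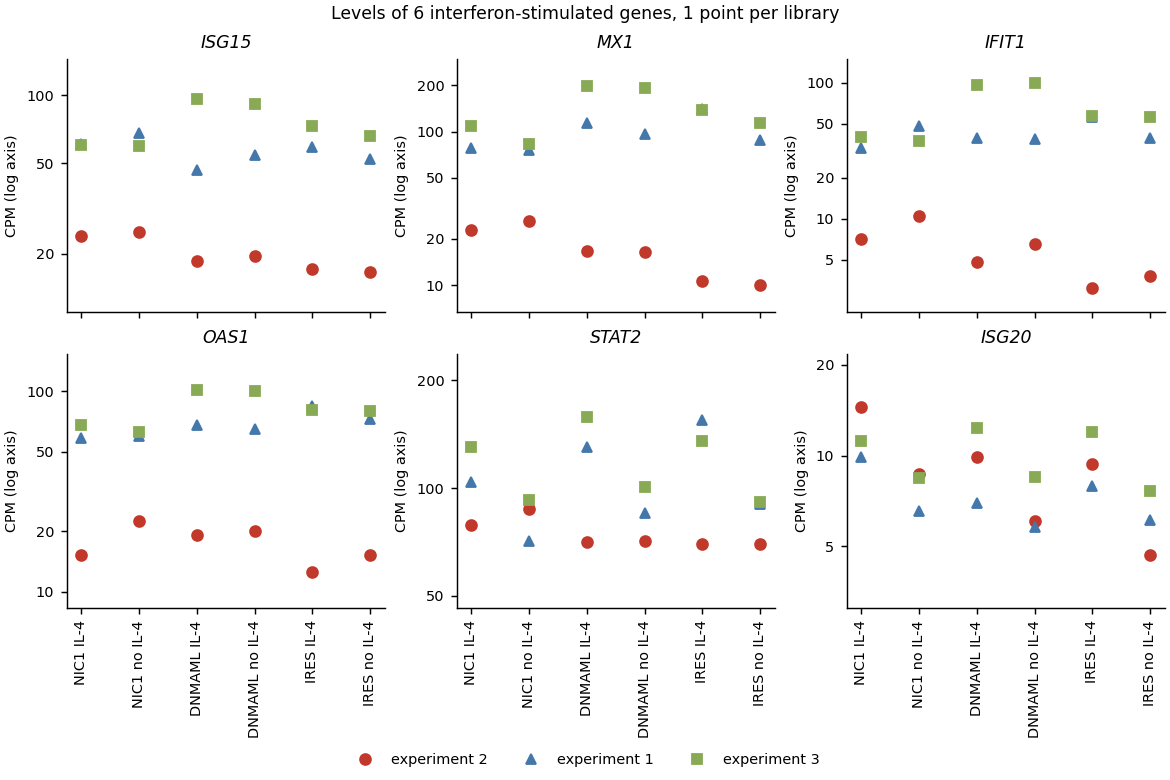
Each point is 1 library, placed by construct and IL-4 on the horizontal axis and by level in CPM on a log axis, with experiments 2, 1 and 3 as circles, triangles and squares. For ISG15, MX1, IFIT1 and OAS1 the circles lie below the other points in each of the 6 groups. STAT2 and ISG20 overlap.

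The next question was whether the difference of experiment 2 was the same under each construct. Between NIC1 and IRES cells it was not, for 4 genes called: XAF1, by 1.12 ± 0.170 (SE, adjusted p = 0.030), HERC5, by 1.20 ± 0.221 (SE, adjusted p = 0.040), BST2, by 0.57 ± 0.111 (SE, adjusted p = 0.045), and IFI35, by 0.55 ± 0.111 (SE, adjusted p = 0.049), on the log2 scale. Among all genes tested, 0.193% were called in either direction and 0.133% upward. A positive value here means that the gene was less reduced in NIC1 cells than in IRES cells of experiment 2. Of the 39 genes 38 had a positive value, with a median of 0.79. ISG15 had 0.53, MX1 1.71, IFIT1 1.69, OAS1 0.79 and STAT2 0.50, and none of these 5 was called.

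In XAF1, the IL-4 and unstimulated libraries of experiment 2 held 26.8 and 36.6 CPM in NIC1 cells, against 18.4 and 17.9 CPM in IRES cells. In experiment 1 they held 59.5 and 59.9 CPM in NIC1 cells, against 91.8 and 75.5 CPM in IRES cells, and in experiment 3 80.7 and 63.7 CPM in NIC1 cells, against 88.7 and 73.8 CPM in IRES cells. NIC1 was thus above IRES in experiment 2 and below it in the other experiments. HERC5 had the same order, with 10.6 and 11.6 CPM in NIC1 cells of experiment 2, against 6.16 and 7.14 CPM in IRES cells, but 18.996 and 22.4 CPM in NIC1 cells of experiment 1, against 28.1 and 28.96 CPM in IRES cells. BST2 followed it, with 139.9 and 173 CPM in NIC1 cells of experiment 2, against 117 and 126 CPM in IRES cells.

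Over the whole list, the median log2 ratio of NIC1 to IRES in unstimulated cells was 0.58 in experiment 2, with 37 of 39 genes above 0, and -0.19 and -0.29 in experiments 1 and 3, with 9 and 2 genes above 0. With IL-4 it was 0.43 in experiment 2, with 38 genes above 0, and -0.49 and -0.24 in experiments 1 and 3, with 3 genes and none above 0. The direction of the NIC1 to IRES ratio therefore differed between experiment 2 and both others, with and without IL-4. These ratios rest on 1 library on each side.

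The 4 calls depend on single libraries. None of the 39 genes was called without any 1 of the 6 libraries of experiment 2, or without the IL-4 IRES library of experiment 1. A single gene was called without the unstimulated IRES library of experiment 1 or 3 or the IL-4 NIC1 library of experiment 1, 2 genes without the unstimulated NIC1 library of experiment 1 or 3, 7 without the IL-4 IRES library of experiment 3 and 9 without the unstimulated DNMAML library of experiment 3. DESeq2 called 19 of the 39 genes, against 0.472% of all genes tested, and 32 were called without the filter on low counts, against 0.945%.

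**Figure D5:**
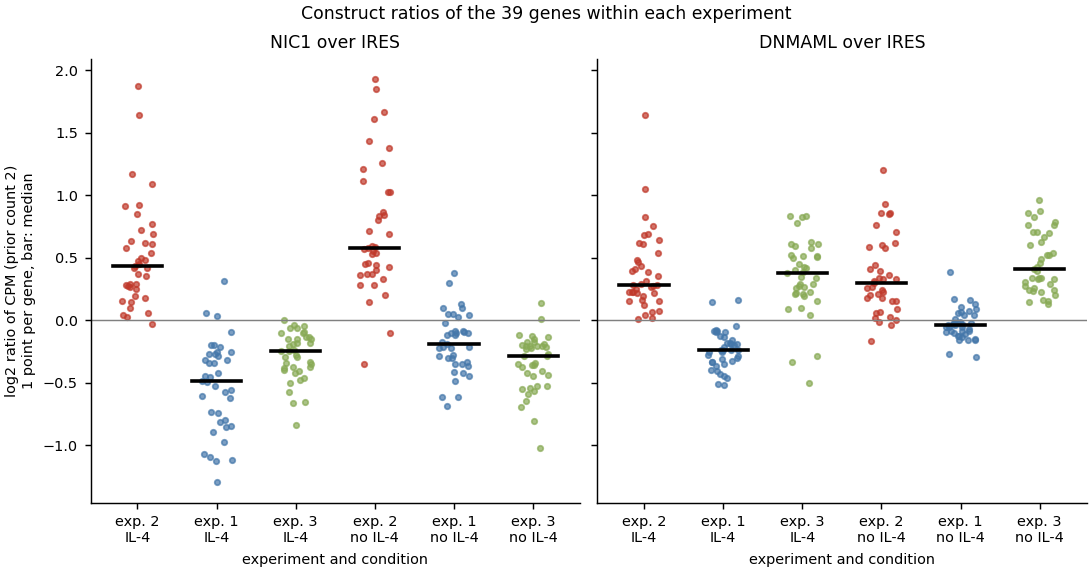
Each point is the log2 ratio of 1 gene between constructs within 1 experiment and condition, at a prior count of 2, with bars at the medians of the 39 genes, for NIC1 over IRES at the left and DNMAML over IRES at the right. For NIC1 the medians are 0.43 and 0.58 in experiment 2 and between -0.49 and -0.19 in experiments 1 and 3.

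Between DNMAML and IRES cells, none of the 39 genes was called for a difference of experiment 2, against 0.0399% of all genes tested. The median was 0.17, with 35 of 39 genes above 0, and IFI6 (0.36 ± 0.185), OAS1 (0.44 ± 0.233) and OAS3 (0.42 ± 0.221) had the smallest unadjusted p, as log2 values with SE. The median log2 ratio of DNMAML to IRES in unstimulated cells was 0.30 in experiment 2, -0.04 in experiment 1 and 0.41 in experiment 3, and with IL-4 0.28, -0.24 and 0.38. DNMAML was thus above IRES in the median in experiments 2 and 3 and below it in experiment 1.

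STAT2 alone was called for a difference of experiment 2 that changed with IL-4, by -0.66 ± 0.108 on the log2 scale (SE, adjusted p = 0.042), against 0.0532% of all genes tested. Its level with IL-4 was 79.0 CPM in NIC1, 70.7 CPM in DNMAML and 69.8 CPM in IRES cells of experiment 2, against 87.4, 71.0 and 69.6 CPM in the unstimulated cells of the same constructs. In experiment 1 the 3 constructs had 103.7, 130.5 and 154 CPM with IL-4, against 71.0, 85.3 and 90.5 CPM unstimulated. In experiment 3 they had 130.4, 157 and 135 CPM with IL-4, against 92.4, 100.4 and 91.6 CPM unstimulated. STAT2 was therefore higher with IL-4 in each of the 6 pairs of experiments 1 and 3, whereas in experiment 2 its level with IL-4 was lower or the same. The log2 ratios were -0.14, -0.01 and 0.00 in experiment 2, between 0.55 and 0.77 in experiment 1 and between 0.50 and 0.65 in experiment 3. The call was kept in 4 of 18 fits that left out a library, those without the IL-4 IRES library of experiment 1 or 3, the IL-4 NIC1 library of experiment 1 or the unstimulated NIC1 library of experiment 3, and lost in the other 14 (adjusted p between 0.0540 and 0.731). It was also lost with RLE size factors (adjusted p = 0.0539) and without the 2 libraries in which most genes were detected (adjusted p = 0.18).

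Across the study's own groups, with the 3 experiments pooled, none of the 39 genes passed the test in any of the 11 comparisons, by edgeR or by DESeq2. These fits have no term for the experiment number, so the large differences of these genes between experiments enter their spread. The lack of a call is therefore weak evidence for these genes, and some were called in fits with a block, given below. The background differed: with IL-4, 3.05% of all genes were called in NIC1, 3.28% in DNMAML and 2.93% in IRES cells, while NIC1 against IRES gave 0.233% unstimulated and 0.2% with IL-4. NIC1 against DNMAML gave 1.65% unstimulated and 1.44% with IL-4, and the remaining 4 comparisons gave 0%. At an unadjusted p under 0.05 there was 1 of the 39 genes for IL-4 in each construct, ISG20, and none in the other 8 comparisons.

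The spread within a group was large beside the differences between groups. ISG15 averaged 48.3 ± 21.2 CPM in NIC1, 53.8 ± 39.3 CPM in DNMAML and 49.96 ± 29.3 CPM in IRES cells with IL-4, against 50.8 ± 22.9, 55.1 ± 35.7 and 45.1 ± 25.7 CPM in the unstimulated cells of the same constructs (SD, n = 3 each). MX1 averaged 70.0 ± 43.8, 109.6 ± 90.7 and 96.2 ± 74.1 CPM with IL-4, against 61.9 ± 31.3, 102 ± 88.03 and 70.5 ± 53.9 CPM unstimulated, in the same order of constructs. IFIT1 averaged 26.8 ± 17.4, 47.0 ± 46.6 and 38.5 ± 30.7 CPM with IL-4, against 32.1 ± 19.5, 48.3 ± 47.4 and 33.2 ± 26.8 CPM unstimulated. OAS1 averaged 47.3 ± 28.1, 63.1 ± 41.7 and 59.0 ± 40.4 CPM with IL-4, against 48.2 ± 22.3, 61.8 ± 40.3 and 56.0 ± 35.5 CPM unstimulated. In these 4 genes the means with and without IL-4 differed, in each construct, by less than the SD of either group, an SD that takes in the difference between experiments. Within an experiment, MX1 was higher with IL-4 in IRES cells each time, with log2 ratios of 0.10 in experiment 2, 0.66 in experiment 1 and 0.29 in experiment 3. With 1 block per construct and experiment, MX1 was called there (0.43 ± 0.114, adjusted p = 0.031). STAT2, which varied less, averaged 104 ± 25.7, 119.5 ± 44.4 and 119.7 ± 44.3 CPM with IL-4, against 83.6 ± 11.2, 85.6 ± 14.7 and 83.9 ± 12.4 CPM unstimulated.

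In the fits without a block, ISG20 was the member closest to a response to IL-4 by p. It averaged 11.8 ± 2.36 CPM in NIC1, 9.71 ± 2.69 CPM in DNMAML and 9.77 ± 2.03 CPM in IRES cells with IL-4, against 7.87 ± 1.16, 6.79 ± 1.49 and 6.14 ± 1.48 CPM in the unstimulated cells (SD, n = 3 each). It was higher with IL-4 in all 9 pairs of 1 experiment and construct, and so were EPSTI1, USP18 and PARP9. The log2 changes of ISG20 were 0.59 ± 0.241 in NIC1 (SE, adjusted p = 0.36), 0.52 ± 0.243 in DNMAML (SE, adjusted p = 0.46) and 0.67 ± 0.245 in IRES cells (SE, adjusted p = 0.25). Blocked on experiment number, the change was called in NIC1 (0.59, adjusted p = 0.020) and IRES cells (0.66, adjusted p = 0.013), where 8.8% and 9.04% of all genes were called, and not in DNMAML cells (adjusted p = 0.0565).

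STAT2 came next by p in the fits without a block, with uncalled log2 changes of 0.32, 0.48 and 0.51 with IL-4 in NIC1, DNMAML and IRES cells. In a fit of experiments 1 and 3 alone, chosen after seeing the data, STAT2 was called with IL-4 in DNMAML (0.63 ± 0.148, adjusted p = 0.032) and IRES cells (0.66 ± 0.149, adjusted p = 0.027), and with the block also in NIC1 cells (0.52 ± 0.120, adjusted p = 0.022). It was also called in DNMAML and IRES cells with the block. Of all genes, 4.58% and 4.05% were called in DNMAML and IRES cells in these experiments, and with the block 6.01% in NIC1, 7.59% in DNMAML and 6.33% in IRES cells. In the fits of all libraries without a block, the third gene by p was IFITM3 in NIC1 (0.20), USP18 in DNMAML (0.45) and PARP14 in IRES cells (0.41), each an uncalled log2 change. With 1 block per construct and experiment, 3 of the 39 genes were higher with IL-4 in NIC1 cells (EPSTI1, ISG20 and USP18), 5 in DNMAML cells (these 3, CMPK2 and TRIM22) and 10 in IRES cells, MX1 among them, and 2 were lower in NIC1 cells, OASL (-0.55 ± 0.142, adjusted p = 7.2e-03) and IFI6 (-0.20 ± 0.0578, adjusted p = 0.020), where 14.3%, 17% and 15% of all genes were called in NIC1, DNMAML and IRES cells. EPSTI1 and ISG20 rose in all 3 constructs in that fit, EPSTI1 by 0.41, 0.45 and 0.66 on the log2 scale in NIC1, DNMAML and IRES cells. The adjusted p of EPSTI1 was below that of ISG20 in DNMAML (6.4e-05 against 4.2e-03) and IRES cells (5.7e-07 against 3.3e-04). In NIC1 cells it was above it (1.3e-03 against 6.6e-04). These changes were smaller than the median difference of experiment 2.

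Of the constructs, NIC1 ran lowest in the median and DNMAML highest, without a call. NIC1 against DNMAML had a median log2 change of -0.35 with IL-4 and -0.37 unstimulated, with 1 of 39 genes above 0 in each. Experiment 2 ran the other way: its median log2 ratio of NIC1 to DNMAML was 0.11 with IL-4 and 0.30 unstimulated, with 27 and 35 genes above 0. In experiment 1 the ratio was -0.22 with IL-4 and -0.17 unstimulated, with 4 and 11 genes above 0, and in experiment 3 it was -0.62 and -0.70, with 3 genes and none above 0. With IL-4 and unstimulated, NIC1 against IRES had -0.25 and -0.09, with 1 and 4 genes above 0, and DNMAML against IRES had 0.11 and 0.22, with 31 and 39 above 0. These comparisons share libraries, so their signs are not independent of each other. The median of DNMAML against IRES with IL-4 was 0.11 with all libraries but -0.37 without the IL-4 DNMAML library of experiment 3 and -0.28 without the IL-4 IRES library of experiment 2.

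The genes with the smallest unadjusted p between constructs were ISG20 (0.36), IFITM3 (-0.14) and IFITM2 (-0.06) for NIC1 against IRES unstimulated, and IFITM2 (-0.15), ISG20 (0.28) and IFIT3 (-0.65) with IL-4. For NIC1 against DNMAML they were IFITM2 (-0.16), IFITM3 (-0.32) and ISG20 (0.21) unstimulated, and ISG20 (0.28), IFITM2 (-0.14) and OASL (-0.995) with IL-4. For DNMAML against IRES they were IFITM2 (0.10), IFITM3 (0.18) and ISG20 (0.14) unstimulated, and IFIT5 (0.25), RSAD2 (0.39) and BST2 (0.18) with IL-4. All are uncalled log2 changes.

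With the experiment number as a block, TRIM22 was called lower in NIC1 than in DNMAML cells with IL-4 (-0.91 ± 0.254, adjusted p = 0.031), where 12.6% of all genes were called. In experiments 1 and 3 alone, BST2 was called lower in that comparison (-0.44 ± 0.111, adjusted p = 0.041), where 4.45% of all genes were called. With the block added to these experiments, 8 genes were lower in NIC1 than in DNMAML cells in each condition, against 9.49% of all genes called in either direction with IL-4 and 11.8% unstimulated, and the largest log2 changes were IFI27 at -1.17 ± 0.269 with IL-4 and -1.18 ± 0.275 unstimulated. BST2, EPSTI1, IFI27, TRIM22 and XAF1 were lower in both conditions. In experiment 2, which is not in these fits, the log2 ratio of NIC1 to DNMAML for IFI27 was 0.23 with IL-4 and 1.33 unstimulated. The fits of experiments 1 and 3 were chosen after seeing the data. A difference in the response to IL-4 between NIC1 and IRES cells, or between DNMAML and IRES cells, passed the test in none of the 39 genes, with medians of the difference of -0.13 and -0.14 on the log2 scale. The smallest unadjusted p belonged to IFITM2 (-0.09), OASL (-0.74) and STAT2 (-0.19) for NIC1, and to IFITM2 (-0.11), IFITM3 (-0.21) and IFITM1 (-0.59) for DNMAML.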

How the data were processed

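RNA from 18 THP-1 libraries was made into TruSeq libraries, per the labels' protocols. The deposited files hold raw read counts for each gene, which the authors made with FastQC, Trimmomatic, HISAT2, HTSeq and DESeq2 on GRCh38.p12, per the submitters' processing notes. Their versions, the annotation and the strand setting were not given in the sources used here. Groups and experiment numbers come from the labels.

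Entries naming no gene (23.8% to 30.9% of reads) were left out. Of 58051 genes, 56948 had a symbol in the name table, and coordinates came from GENCODE release 29. Libraries of 1 group differed by more than counting noise (chi-square per degree of freedom 5.48 to 48.7), so none was treated as a duplicate. Genes were kept by filterByExpr (15037) and scaled by TMM, and CPM are on that scale. Tests used edgeR 4.0.16 in R 4.3.3 (glmQLFit with robust dispersion, glmQLFTest, Benjamini-Hochberg over all genes, threshold 0.05), in models of 6 group means over all libraries. Experiment differences add the experiment number, and the tests of their dependence on construct or IL-4 add products with an indicator of experiment 2. SEs were derived from the F statistic. Ratios within an experiment used a prior count of 2. In simulated counts for 15037 genes with 200 changed, the test of experiment 2 recovered 97% of changes of log2 size 1 and 100% of size 2, with 11 false calls. For NIC1 against IRES unstimulated it recovered 80% and 95%, with 10 false calls. The counts for this group comparison held no difference between experiments, and their spread came from a model with the experiment number. The group test has no such term, so its recovery here overstates what it could find in genes that differ between experiments.

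Alternatives were DESeq2 1.42.0, RLE size factors, no filter, each library left out, the 2 libraries with most genes detected left out, single constructs or conditions, and the experiment number as a block. Experiments 1 and 3 alone were added after seeing the data. The numbers pair the libraries: deviations from the group means correlated at 0.206 to 0.759 (median 0.466) in 45 pairs of groups with the same number, against a median of -0.395 in 90 pairs with different numbers.

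The members and gene lists were chosen with earlier results of these data known. Named with values were ISG15, MX1, IFIT1, OAS1 and STAT2, the 15 called members with the largest change, and, where none was called, the 3 with the smallest p. The fitted changes of those first 5 genes are given only for experiment 2 and its dependence on construct or IL-4, or where they were called or among those 3; elsewhere their levels are given. Values of some pathway genes and cell type markers are not reported here.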

Additional observations from a re-analysis of the deposited data

Results flagged for a closer look

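For 5 genes the difference of experiment 2 was itself different between conditions, by a test of that difference in 1 model over all 18 libraries (edgeR, adjusted over all genes). Between NIC1 and IRES cells it differed for XAF1 by 1.12, HERC5 by 1.20, BST2 by 0.57 and IFI35 by 0.55 on the log2 scale, with adjusted p between 0.030 and 0.049. Each was less reduced in NIC1 than in IRES cells of experiment 2. Between cells with IL-4 and unstimulated cells it differed for STAT2 by -0.66 (adjusted p = 0.042), the gene being more reduced in the cells with IL-4. Without any 1 of the 6 libraries of experiment 2, none of these calls was kept.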

How the results depend on the processing

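The count of 38 genes lower in experiment 2 was 38 in each of the 18 fits that left out a library, and the log2 differences named for that comparison kept their sign and call there. Counts of called genes among the 39 moved elsewhere, and the cause was not tested. For the difference of experiment 2 between NIC1 and IRES cells, the count was 19 with DESeq2 and 32 without the filter on low counts. Of all genes, 0.472% and 0.945% were called in those fits. Over the leave-outs the count was 0 to 9. Between IL-4 and unstimulated cells it was 0 with RLE size factors, 4 without the filter, 0 without the pair of libraries in which most genes were detected, and 0 to 1 over the leave-outs. Between DNMAML and IRES cells it was 3 without the filter. For the IL-4 and DNMAML comparisons, the share of all genes called in these other fits is not reported here. For experiment 3 minus experiment 1 the count was 34, 4 and 2 in DNMAML, IRES and NIC1 cells alone, 28 without the filter and 0 to 4 over the leave-outs. It was 0 in IL-4 or unstimulated libraries alone, with their counts summed, or without that pair.

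With the replicate block (the experiment number), the count was 1 for IL-4 in IRES cells, 1 for IL-4 in NIC1 cells and 1 for NIC1 against DNMAML with IL-4. It changed no other call in the 11 group comparisons. With a replicate block for each construct and number it was 10, 5 and 5 for IL-4 in IRES, NIC1 and DNMAML cells. With experiments 1 and 3 alone, chosen after seeing the data, it was 1 for IL-4 in DNMAML cells, 1 in IRES cells and 1 for NIC1 against DNMAML with IL-4. With the replicate block in these experiments it was 1 for IL-4 in each construct and 8 for NIC1 against DNMAML in each condition.

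Uncalled log2 changes turned sign in some fits. Without that pair, DNMAML against IRES with IL-4 gave -0.21 for IFIT5, -0.45 for RSAD2 and -0.20 for BST2, and IL-4 in DNMAML cells gave -0.13 for USP18. Over the leave-outs these ran between -0.21 and 0.65, -0.45 and 0.90, -0.20 and 0.53, and -0.13 and 0.86. The others that turned were ISG20 (-0.0508 to 0.33) in DNMAML against IRES unstimulated, IFITM2 (-0.23 to 0.0207) in NIC1 against DNMAML with IL-4 and IFITM3 (-0.25 to 0.0146) in NIC1 against IRES unstimulated. In the difference of the IL-4 response from IRES cells, IFITM3 (-0.46 to 0.0406) and IFITM1 (-1.18 to 0.28) turned for DNMAML, and STAT2 (-0.47 to 0.0334) for NIC1. Of the 55 changes of ISG15, MX1, IFIT1, OAS1 and STAT2 in the group comparisons, most of them given above by levels only, 50 turned sign in at least 1 leave-out.

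Low counts limit several genes in experiment 2, IFI27, RSAD2, OASL, TRIM22 and IFI44 among them. Their lowest libraries held 1, 12, 20, 18 and 22 counts, in that order.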
